A study of Homo sapiens with 9 samples.

Results

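Nuclear-encoded respiratory chain genes were measured in H9, an established human embryonic stem cell line, here in a derivative that carries a doxycycline-inducible TCF7L1 transgene in all 3 groups. The genes were taken by symbol: those starting with NDUF, UQCR or ATP5, COX followed by a digit, and SDHA to SDHD, without pseudogenes and without 1 non-coding RNA, NDUFV1-DT. This gave 92 genes on 100 probe sets, of 18417 genes with a probe set that names a single gene. By known function, 6 are core subunits of complex I, 28 are accessory subunits of complex I, 3 belong to complex II, 7 to complex III, 16 to complex IV and 18 to ATP synthase with its inhibitor, and 14 are assembly factors caught by the same symbols. The label of subunits therefore holds for 78 of the 92. SDHB, UQCRFS1, NDUFAF8, and genes found here only on probe sets with several symbols (such as NDUFS5, NDUFC2, COX16, COX17, COX19 and ATP5F1E), are not analysed here.

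The untreated group was kept in mTeSR1, a medium that maintains pluripotency. The PS medium group spent 48 h in a medium for differentiation towards primitive streak, the embryonic source of mesoderm and endoderm. The third group received 1 ug/ml doxycycline (Dox) for the same 48 h in PS medium. Each group had 3 arrays, and the labels do not say whether these were separate cultures, so the spread between them may be technical. Which promoter drives the transgene, or whether the line is 1 clone, is not given in the sources used here. Doxycycline is itself known to slow protein synthesis on mitochondrial ribosomes. No group received the drug without the transgene, so the effects of the drug and of TCF7L1, a mostly repressive TCF/LEF factor, cannot be told apart. The stated purpose of the series was to find genes that respond to TCF7L1.

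The respiratory chain sits in the inner mitochondrial membrane. Complex I takes electrons from NADH and complex II from succinate, complex III passes them to cytochrome c, complex IV passes them to oxygen, and ATP synthase uses the resulting proton gradient to make ATP. All complexes other than complex II also hold subunits encoded by mitochondrial DNA, none of which is analysed here. Many nuclear genes of the chain have binding sites for NRF1, for GABPA and other ETS factors, or for YY1 near their start. Pluripotent stem cells are known to draw much of their energy from glycolysis.

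Of the 92 genes, 78 were matched to a promoter of the RefSeq table (GRCh38.p14), and the 250 bases before the first listed start were searched on both strands for short core motifs chosen with the expression results known. The NRF1 core GCGCATGC stood in 12 of the 78 (15.4%), against 3.70% of 15843 promoters of protein-coding genes. The ETS core CCGGAAG stood in 19 (24.4%), against 11.8%. The YY1 core AAGATGG stood in 4 (5.13%), against 3.35%. The hypoxia response core ACGTGC stood in 7 (8.97%), against 6.68%. The core bound by TCF/LEF factors, CTTTGAT, stood in 0 of the 78, against 1.73%, which says only that these letters are not in these windows. Median GC content was 61.0% in the members and 62.4% in all promoters. Below are the 150 bases before the start of 4 members whose expression changed, chosen after their values were seen, with the motif letters in capitals: 1 NRF1 core, 2 ETS cores and 1 YY1 core. The ETS and YY1 cores read on the opposite strand here. The windows are chr5:1801257-1801406 (plus strand), chr1:46303548-46303697 (plus strand), chr17:75046970-75047119 (minus strand) and chr5:86617791-86617940 (plus strand).
NDUFS6: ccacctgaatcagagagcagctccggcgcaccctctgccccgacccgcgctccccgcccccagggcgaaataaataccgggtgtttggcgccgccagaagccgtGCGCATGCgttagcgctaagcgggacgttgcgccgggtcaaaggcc
UQCRH: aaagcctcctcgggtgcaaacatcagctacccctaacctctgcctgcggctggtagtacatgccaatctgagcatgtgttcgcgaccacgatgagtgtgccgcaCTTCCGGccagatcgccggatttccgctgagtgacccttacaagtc
ATP5PD: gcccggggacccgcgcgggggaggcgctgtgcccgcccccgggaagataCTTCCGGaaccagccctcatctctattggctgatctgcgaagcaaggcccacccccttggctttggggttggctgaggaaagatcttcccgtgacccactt
COX7C: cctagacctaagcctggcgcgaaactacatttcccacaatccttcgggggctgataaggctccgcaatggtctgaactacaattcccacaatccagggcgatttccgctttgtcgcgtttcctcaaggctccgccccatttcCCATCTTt
A match is a description of the letters, not evidence of binding. Of the 9 members that fell in PS medium and have a promoter in the table, 3 held the NRF1 core and 0 the ETS core. Of the 9 that rose with Dox over PS medium and have one, 0 held the NRF1 core and 1, UQCRH, held the ETS core.

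Array medians of all probe sets lay between 200.4 and 216.5 intensity units. TCF7L1 itself gave 3718, 3878 and 3572 intensity units on the untreated arrays, 1275, 1542 and 1611 on the PS arrays, and 13100, 12433 and 2699 on the Dox arrays. The third Dox array was thus above all PS arrays but below all untreated arrays, and counts of calls and the named Dox differences that gained or lost a call without it are given both ways. Of the pluripotent markers 8 of 9 fell in PS medium, and their summed intensity went from between 31184 and 32951 to between 19016 and 21032, then to between 23935 and 25058 with Dox. SOX2 alone gave 579 to 974 on the PS arrays and 3499 to 3711 on the Dox arrays. All 8 primitive streak markers rose in PS medium, and their sum went from between 1964 and 2070 to between 84866 and 94774, then to between 20511 and 29488 with Dox. EOMES alone gave 50981 to 57102 on the PS arrays and 9529 to 15554 on the Dox arrays. With Dox over PS medium 4 of the 9 pluripotent markers rose and 7 of the 8 primitive streak markers fell. Of 8 amnion and trophectoderm markers, 5 rose and 1 (KRT7) fell in PS medium, and 6 rose with Dox over PS medium, with sums of 1408 to 1559, 15730 to 16383 and 28107 to 32224 in the same order. Of that sum TFAP2A alone gave 6483 to 9636 on the PS arrays and 16479 to 18260 on the Dox arrays, while CGA passed in none of the comparisons. Of 10 heart and skeletal muscle markers, 3 rose and 1 fell in PS medium, and 1 (ACTC1) rose with Dox over PS medium, with sums of 4034 to 4585, 4920 to 5447 and 11159 to 13053. Of 7 endothelium and blood markers, 1 rose and 2 fell in PS medium, and 1 (KDR) fell with Dox over PS medium, with sums of 3652 to 4124, 5028 to 5758 and 2383 to 2940. Of 6 neuroectoderm markers 1 rose in PS medium and 2 fell with Dox over PS medium, and of 7 fibroblast markers 1 rose and 2 fell, then 1 fell. The groups thus differed in these markers, and the part of this in the results below was not tested. In bulk RNA, fewer cells of a type and less RNA per cell cannot be told apart.

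The whole set moved little. Changes are differences of group means of log2(intensity + 16) after quantile normalization, with a gene called past the threshold at an adjusted p under 0.05 (limma over all 18417 genes). In PS medium against untreated cells, 6 of the 92 genes rose (6.52%, where 14.2% of all genes rose) and 9 fell (9.78%, where 15.7% of all genes fell). With Dox over PS medium, 10 rose (10.9%, against 8.91% of all genes) and 2 fell (2.17%, against 8.44%). With Dox over untreated cells, 10 rose (10.9%, against 15.3%) and 7 fell (7.61%, against 14.9%). Taken over all 3 comparisons, 67 of the 92 genes passed in none without the replicate block described below. The matching share of all genes is not given here, so this count alone does not set the members apart. A change of at least 1.5-fold was called for 1 member in PS medium against untreated cells and 1 in Dox against untreated cells, COX6B2 both times, and for 0 in Dox against PS medium. Among all genes such changes made up 12.3%, 11.7% and 7.71% of those tested, respectively. The typical standard error of a member's difference was 0.07 on the log2 scale.

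The small differences leaned to one side. In PS medium 28 of the 92 members (30.4%) had a positive log2 difference and 64 a negative one, where 48.9% of all genes were positive, and the median was -0.05, where that of all genes was -0.01. With Dox over PS medium 71 were positive (77.2%, against 50.6% of all genes), with a median of 0.10, where that of all genes was 0. With Dox over untreated cells 59 were positive (64.1%, against 50% of all genes), with a median of 0.05, where that of all genes was 0. Array by array, the median member lay 0.05, 0.07 and 0.06 below the untreated mean on the PS arrays, and 0.03, 0.06 and 0.04 above it on the Dox arrays. The 3 PS arrays and the 3 Dox arrays thus did not overlap. The untreated arrays themselves lay at 0, -0.02 and 0.03, so untreated replicate 3 equalled Dox replicate 1. The PS medium median depended on the scaling: it was 0 when arrays were centred on their medians, where that of all genes was 0.02. Over 18 other settings the PS medium median was -0.06 at the lowest, while the median for Dox over PS medium stayed between 0.09 and 0.12. In PS medium 27 members (29.3%) had all 3 arrays below the untreated arrays, where 22.5% of all genes did, and 8 (8.7%) had all 3 above, where 20.8% did. With Dox 35 members (38%) had all 3 arrays above the PS arrays, where 15.9% of all genes did, and 4 (4.35%) had all 3 below, where 15.0% did.

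**Figure D1:**
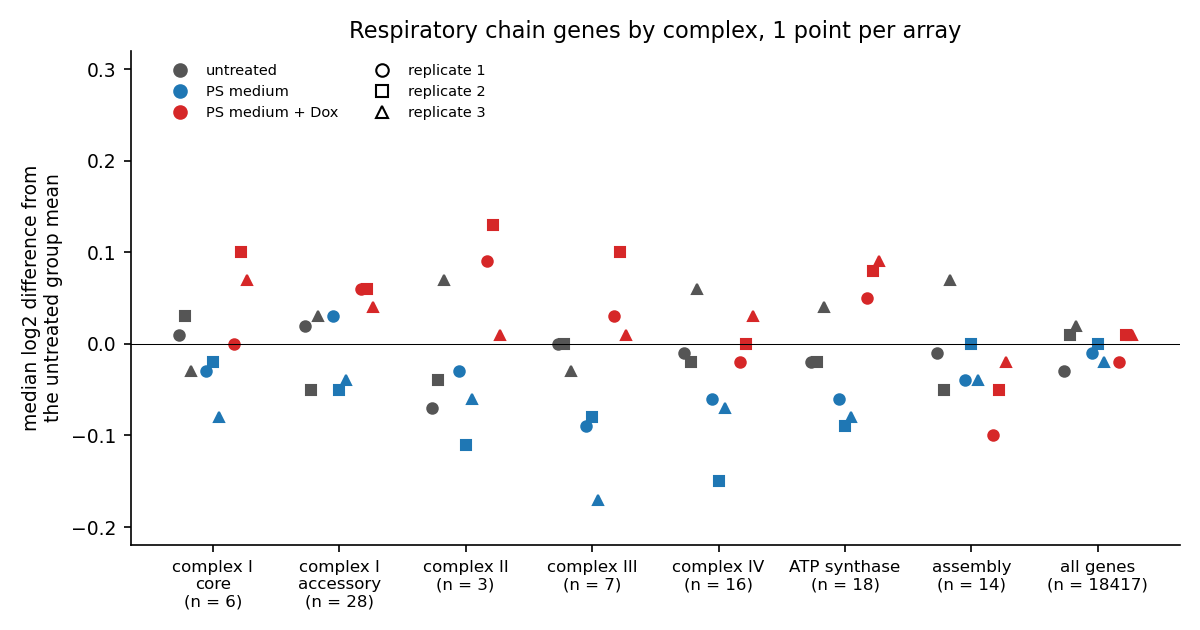
Each point is the median, over the genes of a class on 1 array, of the log2 difference from the untreated group mean (y axis); colours mark the groups and symbols the replicates. The 3 PS medium points lie below the 3 Dox points in both complex I classes, complexes II, III and IV and ATP synthase but not in the assembly factors, and all medians stay between -0.17 and 0.13.

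Arrays of the same replicate number deviated together between the Dox and PS groups, with correlations over genes of 0.245, 0.428 and 0.246. With the replicate number as a block in limma, 27 members rose with Dox over PS medium (29.3%, where 12.7% of all genes rose) and 3 fell (3.26%, where 11.6% fell). By class, the block called 8 rises in ATP synthase, 6 among complex I accessory subunits, 5 in complex IV, 4 in complex III, 2 in complex II, and 1 each in complex I core and assembly. Between the Dox and untreated groups the correlations were 0.246, 0.309 and 0.297. There the block called 18 rises (19.6%, where 19.4% of all genes rose) and 9 falls (9.78%, where 18.9% fell). The pairing rests on the data and not on the labels. The block was fitted over all 9 arrays, so it also takes the PS and untreated arrays as paired. That is unclear, as their correlation was 0.0856 for replicate 1. Unless the block is named, the calls below are those without it.

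Of the rises over PS medium gained with the block, those in ATP synthase were ATP5F1A, ATP5F1D, ATP5IF1, ATP5MC3 and ATP5PO, with log2 differences of 0.16 to 0.17 and a limma adjusted p up to 0.0449. Those of complex I were the core subunit NDUFS8 (0.23, adjusted p = 0.0255) and the accessory subunits NDUFA2, NDUFA3, NDUFA9, NDUFA12 and NDUFB5, at 0.16 to 0.23. Those of complex III were UQCRB (0.39, adjusted p = 0.00844) and UQCRC2 (0.17, adjusted p = 0.0122), and those of complex IV were COX5A, COX5B, COX6B1 and COX8A, at 0.14 to 0.23. The fall gained was that of the assembly factor NDUFAF2 (-0.22, adjusted p = 0.0376). Against untreated cells the block added rises of ATP5MG, NDUFA9, NDUFA12, NDUFAF3, NDUFAF5, NDUFB4, NDUFS1 and NDUFS4, at 0.14 to 0.27, and falls of COX5A and NDUFAF4.

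Complex I is the largest complex of the chain. None of its 6 core subunits, which carry the flavin and iron-sulphur centres, passed in any comparison by limma without the block. In PS medium their log2 differences ran from -0.18 to 0.05, and with Dox over PS medium all 6 were positive, from 0.03 to 0.23. NDUFS1, the largest iron-sulphur subunit, gave 1430, 1574 and 1321 intensity units on the untreated arrays, 1507, 1580 and 1465 on the PS arrays, and 1645, 1685 and 1527 on the Dox arrays. NDUFV1, which binds NADH and flavin, gave 1674, 1782 and 1715, then 1665, 1803 and 1676, then 1721, 1853 and 1860. For both genes all 3 groups overlapped. With the block NDUFS1 rose by 0.15 with Dox over untreated cells (limma adjusted p = 0.0339).

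Of the 28 accessory subunits, 2 rose and 1 fell in PS medium, 1 rose with Dox over PS medium, and 3 rose and 1 fell with Dox over untreated cells. NDUFS6, a zinc-binding subunit beside the NADH-oxidising module, gave 950, 890 and 833 intensity units on the untreated arrays, 662, 703 and 626 on the PS arrays, and 746, 797 and 688 on the Dox arrays. All PS arrays were below all untreated arrays, while Dox and PS arrays overlapped. Its log2 difference in PS medium was -0.45 ± 0.08 (SE, n = 3 arrays per group; limma adjusted p = 0.00183), and it was -0.30 with Dox over untreated cells (adjusted p = 0.0184). The latter call was lost without untreated replicate 1 or Dox replicate 3 (-0.25 in both cases).

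NDUFB3 and NDUFA6 went the other way. NDUFB3, a small subunit of the membrane arm, gave 412, 439 and 440 on the untreated arrays, 529, 506 and 637 on the PS arrays, and 532, 625 and 607 on the Dox arrays. It rose 1.28-fold in PS medium (log2 0.35 ± 0.09, limma adjusted p = 0.0162) and 1.33-fold with Dox over untreated cells (adjusted p = 0.00716). Without untreated replicate 1 the PS medium value was 0.32 with an adjusted p of 0.0681, and without PS medium replicate 3 it was 0.27 with an adjusted p of 0.0506. NDUFA6, a subunit of the LYR protein family, gave 3186, 3307 and 3296 on the untreated arrays, 3916, 3937 and 4068 on the PS arrays, and 3472, 3825 and 3533 on the Dox arrays. It rose 1.20-fold in PS medium (log2 0.26, limma adjusted p = 0.00234). The Dox arrays lay between the other groups without overlap. Its difference with Dox over untreated cells lost the call without Dox replicate 3 (0.17, adjusted p = 0.0526).

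NDUFS4, an accessory subunit needed for a stable NADH-oxidising module, was the complex I gene called with Dox over PS medium without the block, which added 6 more. Its intensities were 1138, 989 and 1163 on the untreated arrays, 1143, 882 and 1084 on the PS arrays, and 1245, 1318 and 1361 on the Dox arrays. The log2 difference was 0.35 ± 0.11 (limma adjusted p = 0.0445). A dimmer probe set for the gene, with 49.6 to 93.3 intensity units, gave -0.38 (adjusted p = 0.0232), and the mean of both gave -0.02. The call was also lost without untreated replicate 1 or 3 (0.35), PS medium replicate 2 (0.23) or 3 (0.38), or Dox replicate 1 (0.38), 2 (0.36) or 3 (0.31). The direction for NDUFS4 therefore depends on the probe set. NDUFB5, of the membrane arm, passed only with Dox over untreated cells (log2 0.29, limma adjusted p = 0.0497), and without untreated replicate 2 it was 0.20 (adjusted p = 0.184). It was also lost without untreated replicate 1 (0.31), PS medium replicate 1 (0.29), or Dox replicate 1 (0.27) or 3 (0.26). NDUFB4 gave 0.30 in PS medium (limma adjusted p = 0.0517, or 0.000835 with the block), and its pair of probe sets holds identical values, so they are not separate measurements.

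Complex II links the citric acid cycle to the chain. SDHA, its flavoprotein and catalytic subunit, gave 2470, 2679 and 2719 intensity units on the untreated arrays, 1892, 2165 and 2060 on the PS arrays, and 2400, 2287 and 2323 on the Dox arrays. All PS arrays were lowest and the Dox arrays lay between, without overlap. The log2 difference was -0.38 ± 0.06 in PS medium (limma adjusted p = 0.000986), 0.22 with Dox over PS medium (adjusted p = 0.0309) and -0.15 with Dox over untreated cells (adjusted p = 0.0907). The rise with Dox was called in 10 of 18 other settings. It was lost without PS medium replicate 1 (0.18, adjusted p = 0.121) or 3 (0.22), Dox replicate 1 (0.20) or 3 (0.23), or untreated replicate 2 (0.22). SDHA has near-identical pseudogenes, which share other probe sets of the array, so its value is uncertain in that respect.

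SDHC, one of the membrane anchors, increased in each comparison on its brighter probe set. Its intensities were 3527, 3468 and 3746, then 3925, 3972 and 4327, then 4681, 4662 and 5025, with no overlap between groups. The log2 differences were 0.17 in PS medium (limma adjusted p = 0.0474), 0.26 with Dox over PS medium (adjusted p = 0.0103) and 0.43 with Dox over untreated cells (adjusted p = 0.000263). The PS medium call was lost without untreated replicate 1 or 2 (0.15), PS medium replicate 2 (0.19) or 3 (0.12), or Dox replicate 1 or 2 (0.17). A dimmer probe set for SDHC, at 553 to 874 intensity units, gave 0.06, 0.22 and 0.27 and did not pass. SDHD, the other anchor, gave -0.07 and 0.14 in PS medium and with Dox over PS medium, and did not pass.

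Complex III passes electrons from ubiquinol to cytochrome c. In PS medium 0 of its 7 genes passed, and all 7 log2 differences were negative, from -0.20 to -0.04. With Dox over PS medium 2 rose, all 7 differences were positive from 0.09 to 0.47, and the median was 0.17. UQCRH, the acidic hinge protein that helps dock cytochrome c, gave 634, 600 and 595 intensity units on the untreated arrays, 595, 656 and 565 on the PS arrays, and 793, 857 and 879 on the Dox arrays. Untreated and PS arrays overlapped, and all Dox arrays were higher. The rise with Dox was 1.38-fold over PS medium (log2 0.47 ± 0.08, limma adjusted p = 0.00245) and 1.34-fold over untreated cells (adjusted p = 0.00266). Another probe set of the array is shared with the near-identical gene UQCRHL, so the value of UQCRH is uncertain in that respect.

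UQCR10, a small subunit beside cytochrome c1, gave 3014, 3025 and 3102 on the untreated arrays, 2927, 2865 and 3006 on the PS arrays, and 3371, 3630 and 3493 on the Dox arrays. All Dox arrays were above all others, with a log2 difference of 0.28 over PS medium (limma adjusted p = 0.00207) and 0.20 over untreated cells (adjusted p = 0.00759). UQCRC1, a core protein on the matrix side, gave 1217, 1315 and 1200, then 1102, 1229 and 1294, then 1249, 1371 and 1256, and the groups overlapped. UQCRC2, its partner, gave 0.17 with Dox over PS medium (limma adjusted p = 0.0515, or 0.0122 with the block). UQCRB gave 0.39 in the same comparison (adjusted p = 0.0637, or 0.00844 with the block and 0.0369 without Dox replicate 3). Both thus passed only under some of the settings.

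Complex IV, cytochrome c oxidase, held the 2 largest falls in PS medium among the 92 genes, those of COX6B2 and COX7C. COX7C, a small membrane subunit, gave 3133, 3212 and 3410 intensity units on the untreated arrays, 2221, 2168 and 2234 on the PS arrays, and 2497, 2668 and 2696 on the Dox arrays. The groups did not overlap in any pair. COX7C fell in PS medium by 0.57 ± 0.05 (log2 ± SE; 1.49-fold, limma adjusted p = 1.63e-05), and rose by 0.27 with Dox over PS medium (adjusted p = 0.00464). With Dox it was still below untreated cells, at -0.30 (adjusted p = 0.00149). COX5A, which lies on the matrix side, gave 4573, 4378 and 4400, then 3656, 3677 and 3834, then 3763, 4035 and 4347. It fell in PS medium by 0.28 (limma adjusted p = 0.00245), and the difference of 0.15 with Dox over PS medium passed with the block (adjusted p = 0.0386) and not without it (0.0874). COX5A was also called for Dox against untreated cells with the block (-0.13, adjusted p = 0.0444) or without Dox replicate 3 (-0.18, adjusted p = 0.0264).

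COX6B2, the testis isoform of a subunit facing the intermembrane space, gave 283, 223 and 306 on the untreated arrays, 138, 100 and 165 on the PS arrays, and 189, 124 and 178 on the Dox arrays. It fell in PS medium by 0.93 ± 0.17 (log2 ± SE; 1.90-fold, limma adjusted p = 0.00206). With Dox over untreated cells the difference was -0.66 (adjusted p = 0.0144), and it was lost without untreated replicate 1 (-0.63) or 3 (-0.57) or Dox replicate 2 (-0.52), with an adjusted p up to 0.0592. The Dox and PS arrays overlapped. The common isoform COX6B1 gave 3669, 3596 and 3621, then 3563, 3495 and 3325, then 3897, 3782 and 3611, and its difference with Dox over PS medium, 0.14 on the log2 scale, passed with the block (limma adjusted p = 0.0295) or without Dox replicate 3 (0.17, adjusted p = 0.0399), but not with all arrays and no block (0.0735).

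Other isoform pairs of complex IV were compared within each gene. COX4I1, the common form of the regulatory subunit 4, gave log2 differences of -0.04 in PS medium and 0.09 with Dox over PS medium, and neither passed. COX4I2, its form in lung and at low oxygen, was dim at 59.5 to 68.5 intensity units in untreated cells, 71.9 to 101 in PS medium and 65.0 to 78.9 with Dox. It rose 1.27-fold in PS medium (limma adjusted p = 0.0196), and the call was lost without PS medium replicate 1 (0.25, adjusted p = 0.0726) or untreated replicate 1 (0.33) or 2 (0.34). COX6A1 and the muscle form COX6A2 gave -0.04 and 0.02 in PS medium, and -0.01 and 0.03 with Dox over PS medium. COX7A2 and the muscle form COX7A1 gave 0.01 and -0.23, then 0.15 and 0.08. COX7B and the testis form COX7B2 gave 0.21 and -0.24, then 0.10 and 0.23. COX8A and COX8C gave -0.08 and -0.06, then 0.16 and -0.01. None of these 8 genes passed in any comparison without the block and with all arrays. COX8A passed with Dox over PS medium with the block (limma adjusted p = 0.0355) and without Dox replicate 3 (0.20, adjusted p = 0.0221). COX7A1 (-0.33) and COX7B2 (-0.39) were called in PS medium without 1 untreated array, replicates 2 and 3 respectively, and COX7B (0.47) with Dox over untreated cells without Dox replicate 1. NDUFA4, long counted with complex I and now with complex IV, is listed under its present symbol COXFA4 and so lies outside the naming rule. It gave -0.24 ± 0.12 in PS medium and 0.25 ± 0.12 with Dox over PS medium, and its relative COXFA4L2 gave 0.15 and -0.07, and neither gene passed, although COXFA4 was called in PS medium without untreated replicate 2 (-0.38, limma adjusted p = 0.0166).

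**Figure D2:**
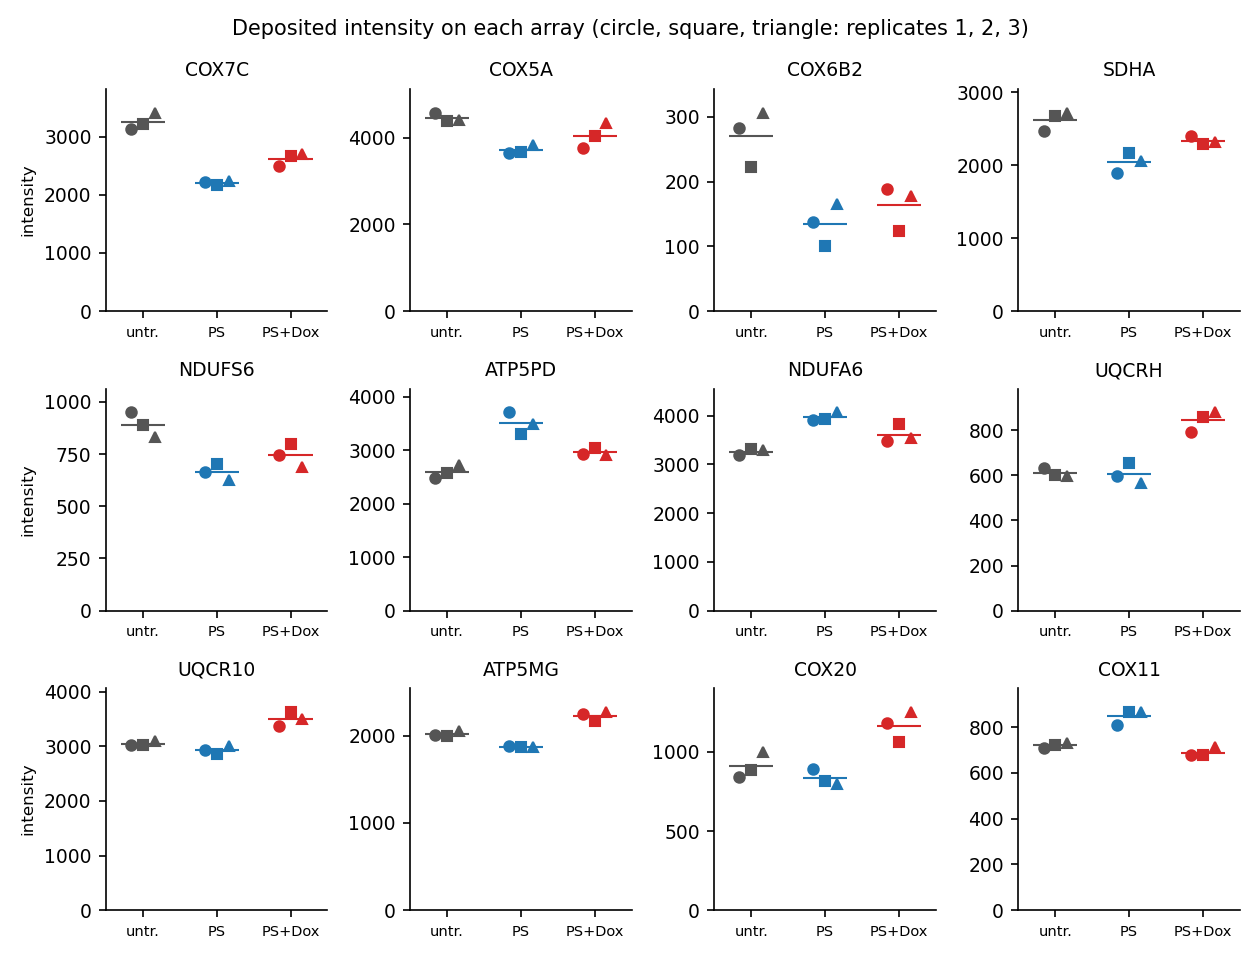
Deposited intensity (y axis, linear, from 0) of 12 members on each array, with bars at the group means. COX7C, COX5A, COX6B2, SDHA and NDUFS6 are lower on all PS medium arrays than on all untreated arrays, ATP5PD, NDUFA6 and COX11 are higher, and UQCRH, UQCR10, ATP5MG and COX20 are highest on the Dox arrays.

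ATP synthase couples a rotor, a catalytic head and a peripheral stalk. In PS medium 1 of its 18 genes rose and 3 fell, and with Dox over PS medium 3 rose and 1 fell, with 17 of 18 differences positive and a median of 0.14. ATP5F1A, the alpha subunit of the head, gave 3751, 3697 and 3920 intensity units on the untreated arrays, 3420, 3238 and 3509 on the PS arrays, and 3744, 3869 and 3582 on the Dox arrays. It fell in PS medium by 0.18 (limma adjusted p = 0.0235), but with median centring the value was -0.13 with an adjusted p of 0.175. The call was also lost without untreated replicate 3 (-0.16) or PS medium replicate 1 (-0.19) or 2 (-0.15). ATP5F1A gave 0.16 with Dox over PS medium (limma adjusted p = 0.057), which passed with the block (0.041) and without Dox replicate 3 (0.20, adjusted p = 0.0387). ATP5F1B, the catalytic beta subunit, gave 6615, 6740 and 6629, then 6416, 6704 and 6162, then 6624, 6485 and 6732, with overlap between all groups.

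The rotor ring is made of 1 protein, subunit c, which 3 genes encode. ATP5MC1 gave 6967, 7006 and 7283 on the untreated arrays, 6567, 6346 and 5838 on the PS arrays, and 7032, 7336 and 6513 on the Dox arrays. It fell in PS medium by 0.21 (limma adjusted p = 0.0133), a call lost without untreated replicate 3 (-0.19, adjusted p = 0.0514). It rose by 0.18 with Dox over PS medium (adjusted p = 0.0423), called in 8 of 18 other settings. That call was lost without any 1 untreated replicate (0.18), PS medium replicate 2 (0.19) or 3 (0.14), or Dox replicate 1 (0.17) or 2 (0.14). Dox replicate 3 was its lowest Dox array, and without it the difference was 0.23 (adjusted p = 0.0117). ATP5MC2 gave 4220, 4016 and 4338, then 3595, 3524 and 3780, then 3816, 3692 and 3624, and fell by 0.22 in PS medium (limma adjusted p = 0.0069) with no call for Dox over PS medium (0.06). ATP5MC3 gave 1272, 1309 and 1343, then 1218, 1276 and 1279, then 1344, 1432 and 1406, and passed with Dox over PS medium with the block (0.16, adjusted p = 0.0379) and not without it (0.0897).

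Of the genes of the peripheral stalk, 1 rose in PS medium. This was ATP5PD, subunit d, which gave 2483, 2573 and 2716 on the untreated arrays, 3711, 3311 and 3488 on the PS arrays, and 2940, 3045 and 2921 on the Dox arrays, with no overlap. It rose 1.33-fold in PS medium (log2 0.42 ± 0.06, limma adjusted p = 0.000269), and the Dox group was lower than PS medium by -0.21 (adjusted p = 0.0261) and higher than untreated cells by 0.21 (adjusted p = 0.0189). The difference from PS medium was lost without PS medium replicate 1 (-0.17) or 3 (-0.21), or Dox replicate 1 (-0.21) or 3 (-0.20), and that from untreated cells without untreated replicate 1 (0.18) or 2 (0.20) or Dox replicate 2 (0.19). ATP5PB, subunit b, gave 2415, 2638 and 2582, then 2824, 2804 and 2832, then 3112, 3337 and 3151. It did not pass in PS medium (0.13, limma adjusted p = 0.0846, or 0.0447 with the block). It rose by 0.21 with Dox over PS medium (adjusted p = 0.0171, or 0.0638 without Dox replicate 2) and by 0.34 with Dox over untreated cells (adjusted p = 0.000587). ATP5PF, coupling factor 6, gave 0.20 in PS medium (limma adjusted p = 0.0581, or 0.0419 with the block). It rose by 0.22 with Dox over untreated cells (adjusted p = 0.0338), a call lost without untreated replicate 1 (0.23) or 2 (0.19) or Dox replicate 2 (0.21) or 3 (0.19).

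ATP5MG, a membrane subunit at the dimer interface, gave 2001, 1993 and 2051, then 1875, 1871 and 1864, then 2246, 2168 and 2272. All Dox arrays were above all others, and the log2 difference over PS medium was 0.27 ± 0.05 (limma adjusted p = 0.00419). The inhibitor ATP5IF1, which blocks ATP hydrolysis by the enzyme, gave 1388, 1407 and 1329, then 1251, 1272 and 1235, then 1431, 1401 and 1386. Its PS arrays were below both other groups, but -0.16 in PS medium (limma adjusted p = 0.0503) and 0.17 with Dox over PS medium (adjusted p = 0.0555) did not pass. With the block both passed (limma adjusted p = 0.0235 and 0.0247).

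The 14 assembly factors showed no common direction, with a median log2 difference of 0.01 in PS medium and -0.01 with Dox over PS medium. COX20, a chaperone of the mitochondrially encoded subunit COX2, gave 844, 884 and 997 intensity units on the untreated arrays, 891, 814 and 798 on the PS arrays, and 1181, 1065 and 1253 on the Dox arrays. All Dox arrays were above all others. It rose 1.40-fold over PS medium (log2 0.48 ± 0.09, limma adjusted p = 0.00489), the largest rise of the 92 genes in that comparison, and by 0.33 over untreated cells (adjusted p = 0.0235), the latter lost without untreated replicate 1 (0.28) or 2 (0.30) or Dox replicate 1 (0.31) or 3 (0.27). COX11, which delivers copper to COX1, gave 709, 724 and 732, then 811, 867 and 866, then 677, 678 and 711. It rose by 0.19 in PS medium (limma adjusted p = 0.0406, called in 10 of 18 other settings and lost without any 1 untreated or PS medium replicate, at 0.18 to 0.21, or without Dox replicate 1, at 0.19), and its difference with Dox over PS medium was -0.30 (adjusted p = 0.00806).

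COX18, which inserts the tail of COX2 into the membrane, gave 1166, 1116 and 1226, then 1032, 926 and 1041, then 994, 925 and 1053, a log2 difference of -0.25 in PS medium (limma adjusted p = 0.0392). It was called in 12 of 18 other settings, and lost without untreated replicate 1 (-0.25) or 3 (-0.21), PS medium replicate 1 (-0.29) or 2 (-0.19), or Dox replicate 1 (-0.25). NDUFAF2, a late complex I assembly factor, gave 785, 743 and 834, then 701, 742 and 722, then 621, 642 and 599. It passed with Dox over untreated cells, at -0.38 (limma adjusted p = 0.00229), and its other probe set gave -0.39 (adjusted p = 0.00682). NDUFAF7, an assembly factor of complex I, gave 2132, 2012 and 2446, then 1805, 1434 and 1917, then 1536, 1497 and 2012, and its -0.40 with Dox over untreated cells had an adjusted p of 0.0445 and was lost without any 1 untreated replicate (-0.32 to -0.47), PS medium replicate 1 (-0.40), or Dox replicate 1 (-0.35) or 2 (-0.32).

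**Figure D3:**
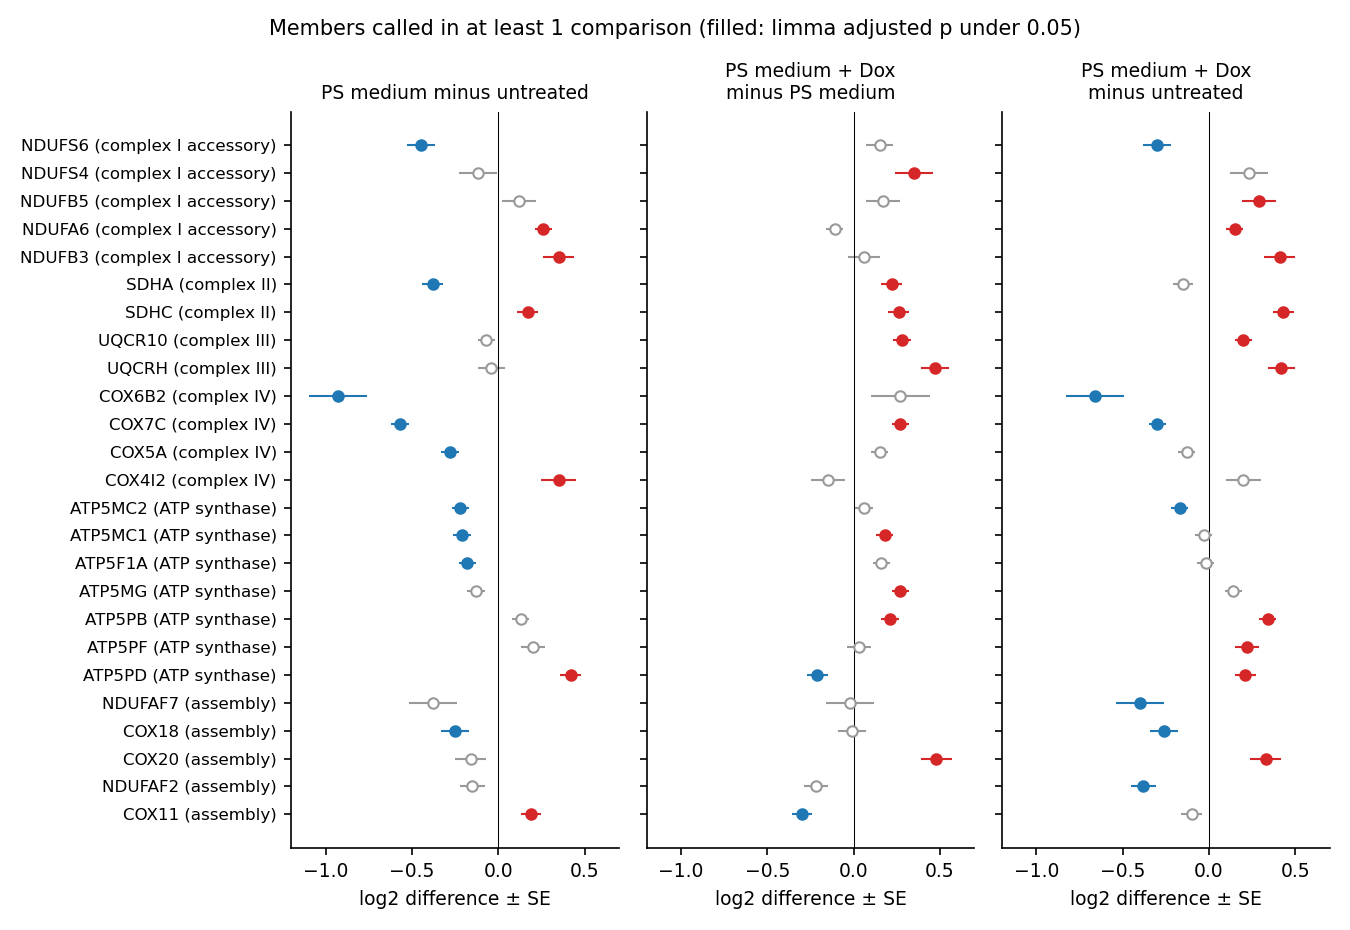
Log2 difference ± SE (x axis) in the 3 comparisons for each member called in at least 1 of them, ordered by complex; filled red and blue points are rises and falls at a limma adjusted p under 0.05, and open grey points did not pass. COX6B2 and COX7C have the largest falls in PS medium, at -0.93 and -0.57, and COX20 and UQCRH the largest rises with Dox over PS medium, at 0.48 and 0.47.

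Calls differed in how far they held when the fit was varied. In PS medium 6 of the 9 falls (COX7C, COX6B2, NDUFS6, SDHA, COX5A and ATP5MC2) and 2 of the 6 rises (ATP5PD and NDUFA6) were called in all 18 other settings. With Dox over PS medium this held for 5 of the 10 rises (COX20, UQCRH, UQCR10, ATP5MG and COX7C) and 1 of the 2 falls (COX11). With Dox over untreated cells it held for 5 of the 10 rises (SDHC, UQCRH, NDUFB3, ATP5PB and UQCR10) and 2 of the 7 falls (COX7C and NDUFAF2). The dimmer probe set of SDHC taken alone did not pass. Leaving out Dox replicate 3, the array with the low TCF7L1 value, gave 13 rises and 1 fall over PS medium, where 8.41% of all genes rose and 7.55% fell. Over untreated cells it gave 8 rises and 6 falls, where 13.7% of all genes rose and 13.3% fell. Over PS medium COX20 (0.42), UQCRH (0.43), UQCR10 (0.28), ATP5MG (0.26), COX7C (0.25) and COX11 (-0.33) were still called.

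Genes around the chain were described from lists of known function. Among all genes 14.2% rose and 15.7% fell in PS medium, and 8.91% rose and 8.44% fell with Dox over PS medium. Of 30 regulators of mitochondrial biogenesis, 1 rose (3.33%) and 7 fell (23.3%) in PS medium, and 2 rose and 2 fell (6.67% each) with Dox over PS medium, with medians of -0.14 and 0. PPARGC1A, the coactivator PGC-1 alpha, gave 147, 134 and 218 intensity units on the untreated arrays, 91.4, 95.3 and 96.9 on the PS arrays, and 1081, 875 and 425 on the Dox arrays. All Dox arrays were higher than all others, and the array with the low TCF7L1 value was the lowest of them. Its rise over PS medium was 6.76-fold (log2 2.76 ± 0.28, limma adjusted p = 6.59e-05), or 3.14 on the log2 scale without Dox replicate 3. ESRRG, an orphan nuclear receptor that binds this coactivator, was dim. It gave 115, 106 and 104 on the untreated arrays, 77.9, 82.8 and 75.2 on the PS arrays, and 100, 110 and 155 on the Dox arrays. ESRRG rose by 0.54 with Dox over PS medium (limma adjusted p = 0.0129), and by 0.39 without Dox replicate 3, its highest Dox array. Over untreated cells the difference was 0.18 and did not pass (limma adjusted p = 0.317).

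GABPA, the ETS factor whose core motif is given above, gave 818, 812 and 809, then 1132, 1092 and 1106, then 927, 916 and 907. It rose by 0.41 in PS medium (limma adjusted p = 0.000406), and with Dox over PS medium the difference was -0.28 (adjusted p = 0.00825), but with the mean of its probe sets it was -0.15 (adjusted p = 0.16). MYC gave 1925, 2023 and 1743, then 1475, 1905 and 1734, then 822, 1255 and 898, a difference of -0.78 with Dox over PS medium (limma adjusted p = 0.00249). PRKAA2, a catalytic subunit of the energy sensor AMPK, was lower in PS medium by -1.11 (adjusted p = 0.000276), and TWNK, the helicase of mitochondrial DNA, by -0.57 (adjusted p = 0.00642).

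Of 30 genes of the citric acid cycle and pyruvate entry, 6 rose (20%) and 5 fell (16.7%) in PS medium, and 5 rose (16.7%) and 3 fell (10%) with Dox over PS medium, with medians of -0.06 and 0.07. PDK1, which switches off pyruvate dehydrogenase, gave 2168, 2399 and 2698, then 4759, 3817 and 5120, then 2297, 1768 and 2403. It rose 1.85-fold in PS medium (limma adjusted p = 0.000775), and with Dox over PS medium the log2 difference was -1.06 (adjusted p = 0.000472). PDHB, the beta subunit of the dehydrogenase itself, gave 0.85 and -0.60 in the same comparisons (adjusted p = 0.000255 and 0.00449). SUCLG1, the alpha subunit of succinyl-CoA ligase, rose 2.11-fold in PS medium (adjusted p = 2.02e-06), ME2, mitochondrial malic enzyme, fell by 0.67 (adjusted p = 6.14e-06), and MPC1, part of the pyruvate carrier, rose by 0.48 with Dox over PS medium (adjusted p = 0.0103). PDK4, a kinase related to PDK1, rose by 1.51 in PS medium (limma adjusted p = 0.00436), and with Dox over PS medium it gave -0.43 (adjusted p = 0.438), or -0.87 without Dox replicate 3 (adjusted p = 0.0144).

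A mixed list of 30 genes held electron carriers, enzymes that feed ubiquinone, and genes of ubiquinone synthesis. It also held membrane carriers and channels (UCP, SLC25A and VDAC genes). Of the 30 genes, 2 rose (6.67%) and 4 fell (13.3%) in PS medium. With Dox over PS medium 2 rose and 2 fell (6.67% each), and the medians were -0.02 and 0.05. AOX1, aldehyde oxidase, an enzyme of the cytosol that was on the list, gave 225, 234 and 238 intensity units on the untreated arrays, 109, 118 and 120 on the PS arrays, and 51.8, 63.5 and 54.5 on the Dox arrays, with no overlap. It fell by 0.89 in PS medium (limma adjusted p = 7.77e-05), by 0.85 with Dox over PS medium (adjusted p = 0.000219), and its difference between Dox and untreated cells was -1.74 (adjusted p = 6.69e-07), called in all 18 other settings each time. COQ8A, needed for ubiquinone synthesis, gave 662, 674 and 720, then 422, 464 and 463, then 302, 335 and 364. It fell in both steps, by 0.61 (limma adjusted p = 0.000358) and then by 0.41 (adjusted p = 0.00754). COQ9, of the same pathway, rose by 0.40 with Dox over PS medium (adjusted p = 0.00249), and PRODH, proline dehydrogenase, rose 2.30-fold in PS medium (adjusted p = 0.00027).

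Among 42 further assembly factors, 2 rose (4.76%) and 9 fell (21.4%) in PS medium, and 0 rose and 1 fell (2.38%) with Dox over PS medium by limma, while 4 and 2 had an unadjusted p under 0.05. HIGD1A, a hypoxia-induced factor of complexes III and IV, gave 1590, 1569 and 1613, then 2024, 2319 and 2286, then 1535, 1745 and 1782, and was the 1 fall with Dox (0.44 in PS medium, limma adjusted p = 0.000868, and -0.37 with Dox over PS medium, adjusted p = 0.004). ATPAF1, which assembles the head of ATP synthase, gave -0.42 in PS medium (adjusted p = 0.00725), and LRPPRC, which stabilises mitochondrial messenger RNA, gave -0.38 (adjusted p = 0.00222). ACAD9, an assembly factor of complex I, rose by 0.40 with Dox over untreated cells (adjusted p = 0.00931), and over PS medium it gave 0.30 (adjusted p = 0.0562, or 0.00539 with the block and 0.0249 without Dox replicate 3). Other falls in PS medium included those of COA7 (-0.40) and SDHAF3 (-0.35), each called in 13 of 18 other settings. Of 33 import and cristae genes, 0 rose and 7 fell (21.2%) in PS medium by limma, while 1 and 10 had an unadjusted p under 0.05, among them TIMM44, CHCHD6 and CHCHD3 at -0.43, -0.41 and -0.38. The TIMM44 call was lost with median centring (-0.36), without untreated replicate 2 (-0.38) or without PS medium replicate 1 (-0.39), and the CHCHD3 call with median centring (-0.32). Of the 33 genes 1 rose (3.03%) and 0 fell with Dox over PS medium by limma, while 4 and 2 had an unadjusted p under 0.05. The rise was that of MFN1, which fuses outer membranes (0.23, limma adjusted p = 0.0439), called in 8 of 18 other settings. It was lost without Dox replicate 3 (0.17, limma adjusted p = 0.137). LONP1, a protease of the matrix, fell by 0.43 with Dox over untreated cells (limma adjusted p = 0.00172).

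**Figure D4:**
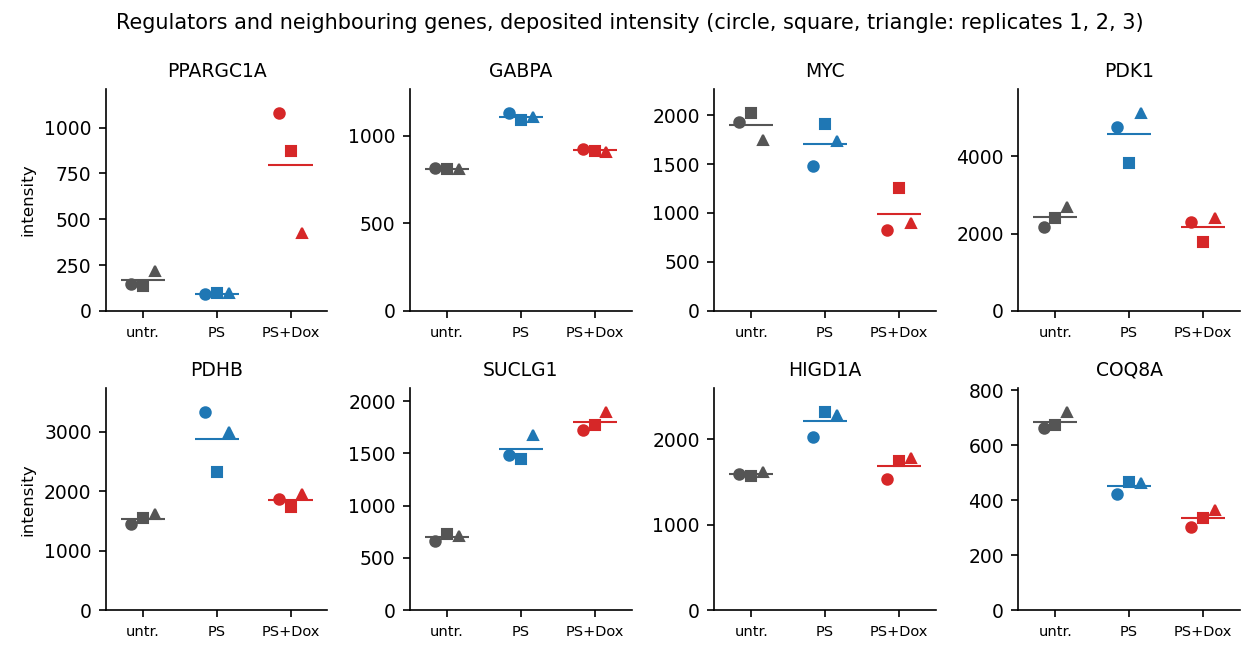
Deposited intensity (y axis, linear, from 0) on each array of 8 genes outside the chain: regulators (PPARGC1A, GABPA, MYC), pyruvate dehydrogenase and its kinase (PDHB, PDK1), SUCLG1, HIGD1A and COQ8A, with bars at the group means. The 3 Dox arrays of PPARGC1A, at 1081, 875 and 425, are above all other arrays, while PDK1, PDHB, HIGD1A and GABPA are highest on the PS medium arrays.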

How the data were processed

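RNA of 9 samples was hybridised to Affymetrix whole-transcript arrays, 3 per group. The file deposited by the authors holds linear intensity values, 1 per probe set, made with Affymetrix Expression Console 1.1.1 and PLIER 2.0, per the submitters' processing notes; how background was corrected and arrays were scaled is not given in the sources used here. Of 33297 probe sets 19460 name 1 gene and 1754 several, and symbols were updated to GRCh38.p14. Values were converted to log2(value + 16) and quantile-normalized over all probe sets, which shrinks changes of the brightest genes, and the offset understates changes of dim genes. Each gene took its brightest probe set. All 9 arrays were fitted with limma 3.58.1 (R 4.3.3; lmFit, eBayes with trend; 6 residual degrees of freedom), with Benjamini-Hochberg adjustment over 18417 genes, and tables were read with data.table (version 1.17.8). The procedure was tested on simulated data. Plots used matplotlib 3.10.9 (Python 3.11.15). The members, gene lists, markers and motifs were chosen with earlier results of these data known.

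Named with fold and adjusted p were the 5 largest rises and falls past the threshold in each comparison, the largest of each complex, a fixed set of core subunits and isoform pairs, and the 3 largest changes per further list. Whether replicate numbers pair the arrays was checked by correlating deviations from group means over genes. The correlation was 0.245, 0.428 and 0.246 between Dox and PS arrays and 0.246, 0.309 and 0.297 between Dox and untreated arrays, all over 0.1, and 0.0856, 0.397 and 0.271 between PS and untreated arrays. Alternatives changed the scaling, offset, dim filter, probe set rule, groups in the fit and block, and left out each array. Only 3 arrays per group limit the precision.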

Additional observations from a re-analysis of the deposited data

How the results depend on the processing

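Over the 92 genes and 3 comparisons, 4737 of the values under other settings kept their side of the threshold, among them 125 (of 67 pairs of gene and comparison, uncalled both ways) whose small difference took the opposite sign, such as NDUFAF1, NDUFB10 and COX10 with Dox over PS medium. Another 120 lost the call, 98 gained one, and 1 called value reversed: NDUFS4 with Dox over PS medium, at -0.02 with the mean of its probe sets. In PS medium the replicate block gave 16 falls (17.4%, where 19.9% of all genes fell), against 9 without it. It gave 9 rises (9.78%, where 17.7% of all genes rose), against 6 without it. Whether the numbers pair those arrays is unclear, as the correlation was 0.0856 for replicate 1 but 0.397 and 0.271 for replicates 2 and 3. The block gave 27 rises with Dox over PS medium (29.3%, where 12.7% of all genes rose), against 10 without it. With Dox over untreated cells it gave 18 rises (19.6%, where 19.4% of all genes rose), against 10 without it. Fitting 2 groups alone gave 1 fall with Dox over PS medium, where 6.39% of all genes fell. Median centring gave 3 falls with Dox over untreated cells, where 12.4% of all genes fell. Over the fits that left out 1 array, PS medium rises ranged from 2 to 7 and falls from 7 to 11, rises with Dox over PS medium from 7 to 13 and falls from 1 to 2, and rises with Dox over untreated cells from 5 to 12 and falls from 2 to 8. Over the same fits the shares of all genes that rose and fell were 10.1% to 14.5% and 12.3% to 16.1% in PS medium. They were 6.64% to 9.01% and 6.14% to 7.94% with Dox over PS medium, and 10.9% to 16.7% and 11.8% to 16.1% with Dox over untreated cells. Among the members, PS medium rises dropped to 2 without untreated replicate 1, 3 without untreated replicate 2 or PS medium replicate 3, and 4 without PS medium replicate 1 or Dox replicate 1. The falls with Dox over PS medium dropped to 1 without PS medium replicate 1 or 3, or Dox replicate 1 or 3. Rises with Dox over untreated cells dropped to 5 without untreated replicate 1 or 2, and falls to 2 without untreated replicate 1 and 3 without untreated replicate 3 or Dox replicate 2. The cause was not tested. COX4I2, COX7A1, COX7B2 and COX8C are dim, and low signal limits what their values can show.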
